A study of Homo sapiens with 6 samples.

Results

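The innate immune receptors and adaptors described here are 10 genes of Toll-like receptor signalling, chosen by name from the 29845 genes with a read in the deposited count table. They are the receptors TLR1, TLR2, TLR3, TLR4, TLR5 and TLR6, the co-receptors CD14 and LY96, and the adaptors MYD88 and TICAM1. Toll-like receptors recognise microbial molecules on the cell surface or in endosomes and recruit adaptor proteins through a shared TIR domain. MYD88 serves all of these receptors but TLR3 and leads to NF-kappaB, while TICAM1 (also called TRIF) serves TLR3 and the endocytosed TLR4 and leads to both NF-kappaB and the interferon regulatory factors. Lung epithelial cells use this system to answer inhaled microbes with chemokines and interferons.

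RNA was sequenced from A549, a human lung adenocarcinoma line with epithelial character, in 3 control libraries from cells given an empty plasmid and 3 libraries labelled TFAM-OE from cells given a plasmid for FLAG-tagged TFAM, the mitochondrial DNA-binding transcription factor A. Both groups were therefore transfected with plasmid DNA, no untransfected cells are compared here, and all 6 libraries come from the same line after transient transfection. The TFAM gene itself had 2555, 1878 and 2663 control reads against 2291, 2808 and 2492 in TFAM-OE-labelled libraries (log2 fold change 0.08, 95% interval -0.13 to 0.30, edgeR adjusted p = 0.623). The study checked the tagged protein by western blot with an antibody to FLAG, and it is not stated whether reads of the plasmid-borne TFAM were assigned to the TFAM gene. The TFAM count thus gave no check of the label, and every direction below refers to libraries as labelled.

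The 6 libraries held between 26650854 and 37321956 counted reads, and mitochondrially encoded genes took between 2.67% and 2.80% of reads in the control and between 3.71% and 4.07% in TFAM-OE-labelled libraries. All 6 epithelial markers looked up were tested and none passed the adjusted threshold, with keratin genes KRT7 and KRT8 averaging 1376 and 714 FPKM in the control (reads scaled by gene length and library size), while EPCAM and CDH1 averaged only 0.193 and 0.753 FPKM. The alveolar type II markers SFTPA1 and SFTPA2 were not analysed here, and SFTPB and SFTPC averaged 0.00333 and 0.0200 FPKM in the control. LAMP3, the only alveolar type II marker with enough reads to be tested, was called lower, from 6.31 to 0.843 CPM (reads brought to a common library size; log2 fold change -2.91, edgeR adjusted p = 6.7e-05). Of 12 myeloid markers 10 had a read and 2 were tested, and neither passed the threshold.

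Among the 8 of 10 genes with enough reads to be tested, TLR3 fell, CD14 rose, MYD88 fell by less than 2-fold, and no other gene passed the adjusted threshold. TLR3 was 3.48-fold lower in TFAM-OE-labelled libraries, CD14 was 2.15-fold higher and MYD88 was 1.64-fold lower. A gene was called when its Benjamini-Hochberg adjusted p in edgeR was below 0.05 and its fold change was at least 2 or at most 0.5. By that rule 1 gene was called lower, against 2.07% of all 16555 tested genes, and 1 was called higher, against 0.447%. At the adjusted p alone 2 were lower, against 4.81% of tested genes, and 1 was higher, against 3.48%. The 3 control and 3 TFAM-OE-labelled libraries did not overlap for TLR3, MYD88 and TICAM1 in the lower direction and for CD14 in the higher one, where 15.8% of tested genes had no overlap in each direction.

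The short sequences below are the study's RT-qPCR primers for TLR3 and CD14, since these are the genes that passed both thresholds. The paper names TLR3 among the genes it measured by RT-qPCR, on the same total RNA, and reports that both methods matched. The reverse primers are written on the strand opposite to the transcript. Each primer matched the canonical GENCODE transcript of its gene once, and matches elsewhere in the genome were not searched. The TLR3 primers lie in the coding part of exon 3, at chr4:186078857-186078876 and chr4:186078965-186078984, and span 128 bases.
TLR3 forward: tctgtctcataatggcttgt
TLR3 reverse: tggcaaagatatccagttct
The CD14 primers lie in the untranslated end of exon 2, at chr5:140631842-140631861 and chr5:140631758-140631775 on the reference, and span 104 bases. CD14 is transcribed from the minus strand.
CD14 forward: gcctaagatccaagacagaa
CD14 reverse: gggcaaagggttgaattg

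Promoters of the 3 genes past the adjusted threshold were read for the letters of known elements, in 250 bases before the RefSeq start on GRCh38 and on both strands. The words were GAAANNGAA, the core of the interferon-stimulated response element (ISRE), TTCNNNGAA, the core of a STAT site, and GGNNTTTCC, an NF-kappaB core. They occurred in 6.88%, 6.57% and 5.48% of 35116 promoters. The promoters of 8 of the 10 genes were searched, and those of TLR1 and LY96 were not. The windows below hold 29 bases around each match, with the matching letters in capitals.
TLR3, STAT match, chr4:186068968-186068996, plus strand: ctgtgaccctTTCAATGAAatccaaggat
TLR3, STAT match, chr4:186069096-186069124, plus strand: ccctttgcccTTCTTGGAAtgcaccaaac
MYD88, STAT match overlapping an ISRE match, chr3:38138587-38138615, plus strand: gcggcgcTTCTCGGAAAGCGAAagccggc
CD14, STAT match, chr5:140633280-140633308, minus strand: attgcaatatTTCCAGGAAaggaaggggg
In MYD88 the STAT match TTCTCGGAA and the ISRE match GAAAGCGAA share 3 letters. TLR2 and TICAM1 each held the NF-kappaB match GGACTTTCC, and TLR4, TLR5 and TLR6 held none of the words. The TLR3 and MYD88 windows lie wholly within exons of GENCODE transcripts that start upstream of the RefSeq start, and 13 bases of the CD14 window do. A match here describes letters, not bound factors.

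TLR3, the endosomal receptor for double-stranded RNA, had 165, 159 and 222 control reads against 44, 64 and 51 in TFAM-OE-labelled libraries. In CPM these were 4.91, 5.94 and 6.05 against 1.38, 1.76 and 1.70. Every control library lay above every TFAM-OE-labelled library, and the gap between the groups was wider than the range within either. The means were 5.63 ± 0.630 CPM (SD, n = 3) and 1.61 ± 0.204 CPM (SD, n = 3), with a log2 fold change of -1.80 (SE 0.18, 95% interval -2.20 to -1.40, edgeR adjusted p = 3.6e-04). The gene lies at chr4:186068911-186088073 on the plus strand with 5 exons in GENCODE, and no other annotated gene overlaps it. Its next protein-coding neighbour, FAM149A, 16346 bases downstream, had a log2 fold change of 0.12 (edgeR adjusted p = 0.802). As these are bulk samples, fewer cells expressing a gene and less RNA per cell cannot be told apart.

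TLR1 and TLR6, surface receptors that pair with TLR2 to bind bacterial lipopeptides, overlap on the same strand of chr4 (TLR1 38790677 to 38856817, TLR6 38822897 to 38856817) and are close paralogs, so the split of reads between them is uncertain. TLR6 had 14.4, 13.3 and 11.3 CPM in the control and 7.59, 11.6 and 13.2 CPM in TFAM-OE-labelled libraries, and the groups overlapped (log2 fold change -0.27, 95% interval -0.71 to 0.17, edgeR adjusted p = 0.418). TLR1 had 2.44, 3.02 and 2.73 CPM against 2.54, 2.97 and 2.40 CPM. These overlapped fully, and the interval of the TLR1 log2 fold change, -0.44 to 0.35 around -0.04, leaves out a 2-fold change in either direction (edgeR adjusted p = 0.903). The TLR6 interval leaves it out as well.

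The remaining surface receptors were close to the limit of detection. TLR4, the receptor for lipopolysaccharide at chr9:117704175-117724735, had 30, 17 and 9 control reads against 8, 11 and 22 in TFAM-OE-labelled libraries, and an annotated gene model not analysed here overlaps it. TLR5, the flagellin receptor at chr1:223109404-223143248, had 15, 12 and 22 reads against 8, 27 and 10 reads. TLR2, at chr4:153684070-153706260, had 7, 1 and 5 reads against 3, 7 and 1 reads and did not reach the filter. The groups overlapped for each of these, and the 95% intervals of the log2 fold change ran from -1.66 to 0.73 for TLR4, from -1.11 to 0.80 for TLR5 and from -1.90 to 1.41 for TLR2 in a fit without the filter. None left out a 2-fold fall, and that of TLR2 did not leave out a 2-fold rise either. TLR4 exceeded the CPM the filter asks for in 2 control libraries and 1 TFAM-OE-labelled library, and TLR5 in 3 and 2.

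CD14, which hands lipopolysaccharide to TLR4 and also serves other receptors, had 72, 58 and 75 control reads against 133, 151 and 160 in TFAM-OE-labelled libraries. In CPM these were 2.14, 2.17 and 2.05 against 4.17, 4.15 and 5.33. The control libraries lay within a narrow band, and all 3 TFAM-OE-labelled libraries stood above it, with replicate 3 the highest. The means were 2.12 ± 0.0636 CPM and 4.55 ± 0.674 CPM (SD, n = 3 each), with a fold change of 2.15 (95% interval 1.64 to 2.80, log2 fold change 1.10, SE 0.17, edgeR adjusted p = 0.00565). Without labelled TFAM-OE replicate 3 the log2 fold change was 0.98, under the 2-fold limit of a call. CD14 lies at chr5:140631728-140633700 on the minus strand, and its neighbour NDUFA2, 5040 bases away, had a log2 fold change of 0.32 (edgeR adjusted p = 0.173).

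CD14 is best known from monocytes and macrophages. Of the 12 other myeloid markers only ITGAM and LAPTM5 had enough reads to be tested, neither passed the threshold, and the part of such cells in the CD14 result was not tested. The summed level of the list was 0.87 to 1.17 FPKM in the control and 0.84 to 0.97 FPKM in TFAM-OE-labelled libraries. The defining marker PTPRC (CD45) averaged 0 CPM in the control and 0.0111 CPM in TFAM-OE-labelled libraries, and TYROBP and FCGR3A were not analysed here. ITGAM, which made up most of the summed level, had a log2 fold change of -0.44 and LAPTM5 of 0.20 (edgeR adjusted p = 0.173 and 0.792).

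LY96, also called MD-2, is the subunit that binds lipopolysaccharide together with TLR4, and it lies at chr8:73991392-74029079. It had 7, 2 and 0 control reads against 1, 6 and 1 in TFAM-OE-labelled libraries. A count of 0 allows up to 0.0818 CPM in control replicate 3. LY96 did not reach the filter, and its log2 fold change in the fit without the filter, -0.21, had an interval from -2.18 to 1.76, so CD14 rose in cells where the reads of TLR4 and LY96 were too few to show a difference.

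MYD88, the adaptor of most Toll-like receptors and of the IL-1 receptor family, had the most reads of the 10 genes, with 3291, 3194 and 4669 control reads against 2530, 2536 and 1835 in TFAM-OE-labelled libraries. In CPM these were 97.9, 119 and 127 against 79.3, 69.7 and 61.1. All control libraries lay above all TFAM-OE-labelled libraries, with control replicate 1 nearest to the other group. The means were 115 ± 15.2 CPM and 70.1 ± 9.11 CPM (SD, n = 3 each), with a log2 fold change of -0.71 (SE 0.13, 95% interval of the fold change 0.499 to 0.747, edgeR adjusted p = 0.0118). The adjusted p was 0.0757 without control replicate 2 and 0.0702 without labelled TFAM-OE replicate 2, with log2 fold changes of -0.68 and -0.71. MYD88 lies at chr3:38138552-38143024, and its neighbour ACAA1, 1310 bases away on the other strand, had a log2 fold change of 0.25 (edgeR adjusted p = 0.165).

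TICAM1, the adaptor of TLR3, had 648, 537 and 707 control reads against 546, 582 and 420 in TFAM-OE-labelled libraries, or 19.5 ± 0.442 and 15.7 ± 1.59 CPM (SD, n = 3 each). In CPM the groups did not overlap, with 19.3 in the lowest control library and 17.1 in the highest of the other group, but the log2 fold change of -0.31 (SE 0.12, 95% interval -0.58 to -0.05) did not pass the adjusted threshold (edgeR adjusted p = 0.133). The gene lies at chr19:4815932-4831712 on the minus strand. For TLR3, CD14, MYD88 and TICAM1 alike, an exact two-sided permutation test of the CPM gave p = 0.1, the smallest that 3 against 3 libraries allow.

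**Figure D1:**
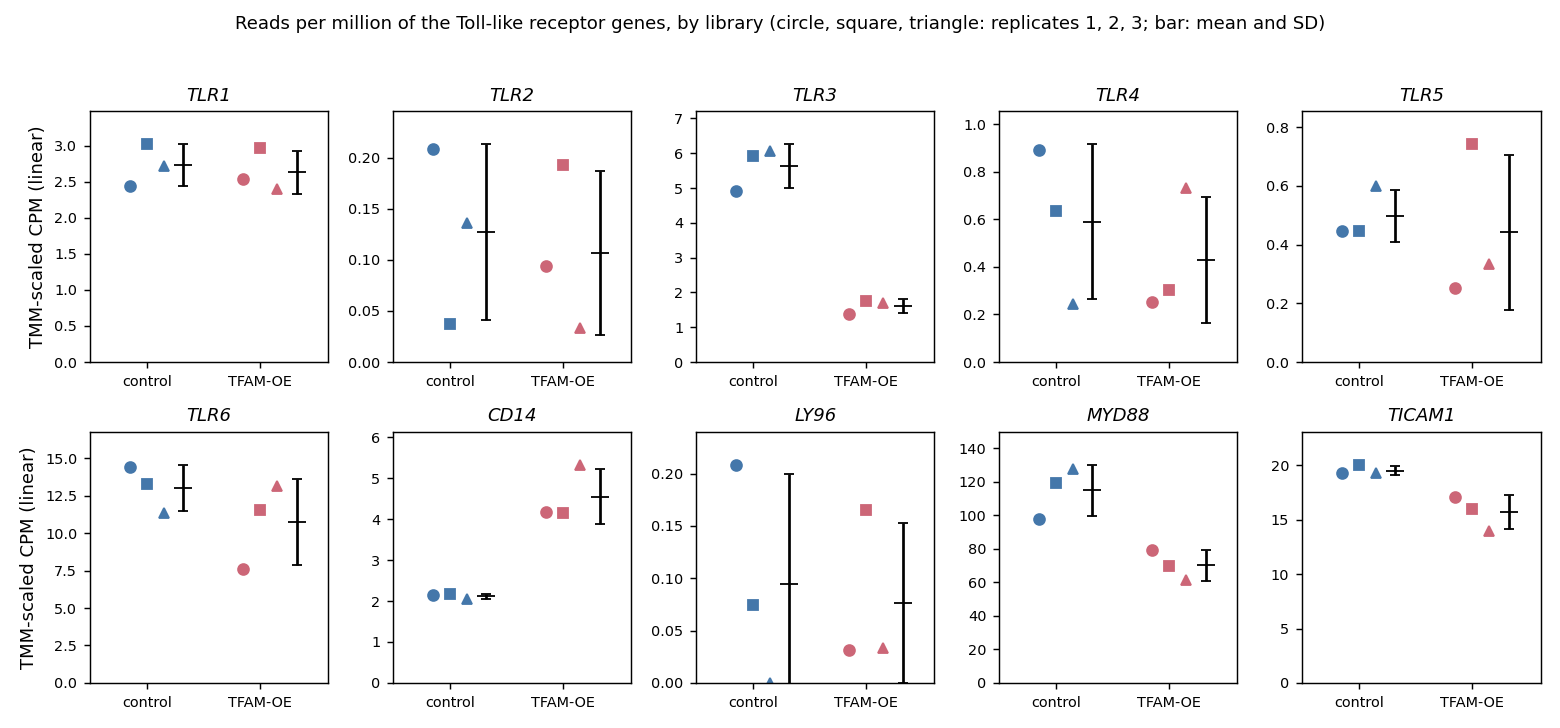
Library-size-scaled CPM of each gene on a linear axis from 0, in 3 control (blue) and 3 labelled TFAM-OE (red) libraries, with circles, squares and triangles for replicates 1, 2 and 3 and black bars for the mean and SD (bars that would pass below 0 end at the axis). The groups separate for TLR3, CD14, MYD88 and TICAM1 and overlap for the other 6 genes.

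**Figure D2:**
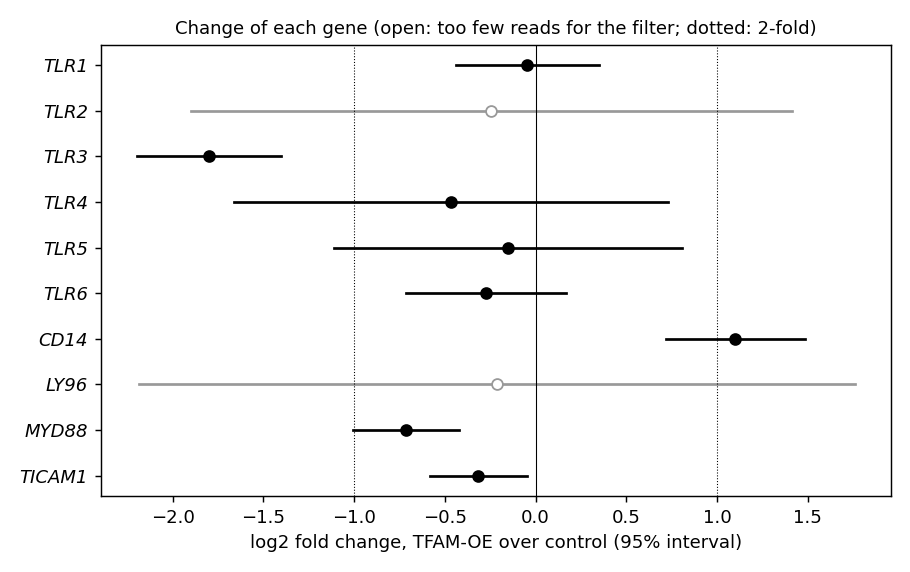
Log2 fold change of each gene, labelled TFAM-OE over control, with its 95% interval, where open symbols mark TLR2 and LY96 from the fit without the filter and dotted lines mark a 2-fold change. The interval of TLR3 lies wholly beyond the 2-fold line, that of CD14 crosses it, and those of TLR2, TLR4, TLR5 and LY96 are wide.

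Levels can be set beside each other between genes only per length, in FPKM. In the control, MYD88 was highest at 29.99 to 36.98 FPKM, followed by TICAM1 at 6.01 to 6.36 FPKM and TLR6 at 1.61 to 2.15 FPKM. CD14 at 0.91 to 1.00 FPKM came next, then TLR1 at 0.75 to 0.90 FPKM and TLR3 at 0.69 to 0.81 FPKM, whose ranges overlapped. LY96, TLR4 and TLR5 followed between 0 and 0.30 FPKM, each overlapping the next, and TLR2 had the lowest mean, with a range of 0.01 to 0.04 FPKM that lay within that of LY96. The adaptors were thus above every receptor in each library.

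In TFAM-OE-labelled libraries CD14 passed TLR6 in the order of the means, and TLR5 passed TLR4, each pair with overlapping ranges. CD14 at 1.77 to 2.51 FPKM now overlapped TLR6 at 1.03 to 1.99 FPKM, whereas in the control it lay below it. TLR3 kept its rank, but at 0.18 to 0.24 FPKM it overlapped LY96 at 0.04 to 0.23 FPKM and no longer TLR1 at 0.71 to 0.87 FPKM.

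**Figure D3:**
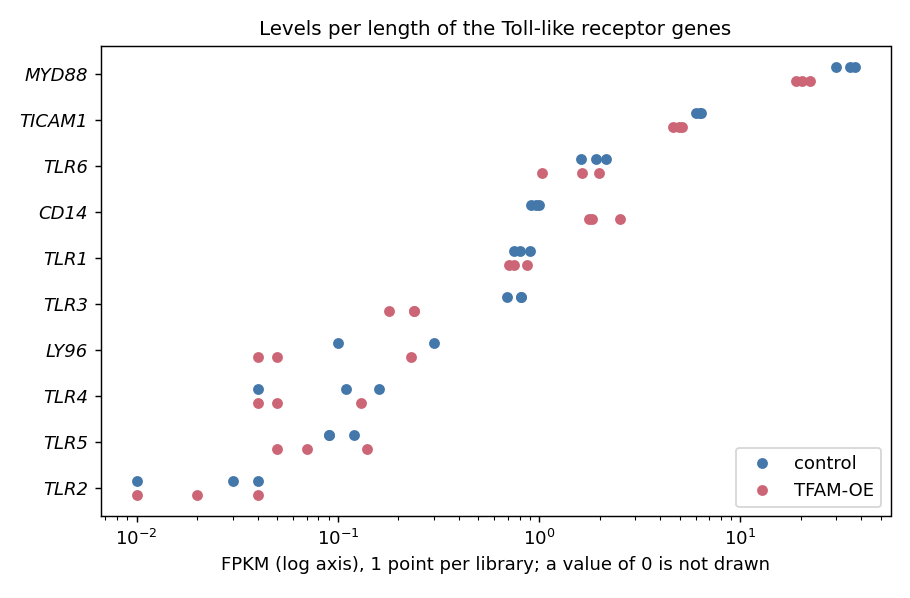
FPKM of each gene on a log axis, 1 point per library, in control (blue) and labelled TFAM-OE (red) libraries, ordered by the control mean (the LY96 value of 0 in control replicate 3 is not drawn). MYD88 and TICAM1 lie above all receptors in both groups. In TFAM-OE-labelled libraries the TLR3 points, at 0.18 to 0.24 FPKM, overlap LY96 at 0.04 to 0.23 FPKM. LY96 rests on 1, 6 and 1 reads there.

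Ratios of reads within a library do not depend on how libraries were scaled. Reads of MYD88 per read of TICAM1 were 5.08, 5.95 and 6.60 in the control and 4.63, 4.36 and 4.37 in TFAM-OE-labelled libraries, without overlap. The means were 5.88 ± 0.765 and 4.45 ± 0.156 (SD, n = 3 each, exact permutation p = 0.1, the smallest possible). How many ratios of 2 genes separate in this way was not computed. Of single tested genes 15.8% had no overlap in each direction, so this ratio is a description. Reads of CD14 per read of TLR3 were 0.436, 0.365 and 0.338 against 3.02, 2.36 and 3.14, without overlap, as follows from the opposite changes of these genes. Since TLR3 is the longer gene, this ratio of reads does not say which gene had the higher level. Reads of TLR3 per read of TLR6 were 0.341, 0.447 and 0.534 against 0.182, 0.152 and 0.129, without overlap, as follows from the fall of TLR3. Reads of TLR6 per read of TLR1 ranged from 4.16 to 5.90 against 2.99 to 5.49 and overlapped (exact permutation p = 0.4).

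**Figure D4:**
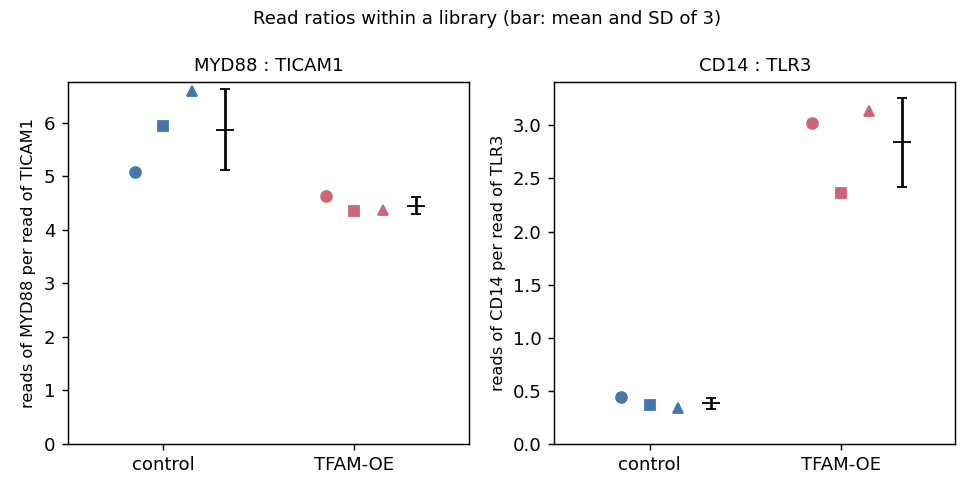
Reads of MYD88 per read of TICAM1 (left) and of CD14 per read of TLR3 (right) in each library, on linear axes from 0, with circles, squares and triangles for replicates 1, 2 and 3 and bars for the mean and SD of 3 libraries. The groups do not overlap in either ratio.

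The rest of the pathway was looked up in lists of 82 further genes, of which 80 were analysed and 63 had enough reads to be tested. Of these 10 were called lower and none higher, beside 2.07% and 0.447% of all tested genes, and at the adjusted p alone 17 were lower and 2 higher, beside 4.81% and 3.48%. The 63 genes had a median of -0.27 on the log2 scale, beside -0.01 over all genes tested. Of the 10 lower calls 8 were cytokine and chemokine outputs. Among them IFNB1, CCL3 and CXCL11 were tested only because of their control level, so the pathway count and median are a description.

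Upstream of the adaptors few genes passed the adjusted threshold. None of 9 tested chaperones, co-factors and processing enzymes was called, and 2 were lower at the adjusted p alone. These were CTSS and CTSL, lysosomal cathepsins that process endosomal receptors, with log2 fold changes of -0.94 and -0.40 (edgeR adjusted p = 0.00771 and 0.0297). The list's median log2 fold change was -0.39, beside -0.01 over all genes tested. None of 3 other TIR adaptors and none of 4 members of the IL-1 receptor family passed the threshold. The medians of these lists were 0.11 and -0.39 on the log2 scale. None of the 4 other Toll-like receptors had enough reads to be tested (TLR8 was not analysed here). TLR9, the receptor for unmethylated CpG DNA, is named after its values were seen, with 11, 4 and 7 control reads against 1, 1 and 0 in TFAM-OE-labelled libraries. The groups did not overlap in TLR9, but the share of genes with so few reads that separate was not computed. Another gene model, with a log2 fold change of 0.38, overlaps TLR9 on the same strand, so the reads of TLR9 are uncertain. TLR10 went the other way, with 4, 5 and 5 control reads against 11, 5 and 12, and its groups overlapped.

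Between adaptors and transcription factors most genes did not pass the threshold. Of 20 kinases, ubiquitin ligases and scaffolds none was called, while TBK1, the kinase that activates interferon regulatory factors, and IRAK2, a kinase recruited by MYD88, had log2 fold changes of -0.47 and -0.38 (edgeR adjusted p = 0.0468 and 0.0440), and the ubiquitin ligase PELI3 rose by 0.76 (adjusted p = 0.0315). The list's median of -0.05 was close to that of all genes. Of 9 tested negative regulators ATF3, a repressor of inflammatory genes, was called lower, from 49.7 ± 30.6 to 6.99 ± 0.681 CPM (edgeR adjusted p = 0.00276). TNFAIP3 (A20), itself a target of NF-kappaB, was lower by the adjusted p (log2 fold change -0.97, adjusted p = 0.00204) and SIGIRR higher (0.47, adjusted p = 0.0442). Of 7 transcription factors IRF7, the interferon-induced regulator of interferon genes, was called lower, from 140 ± 18.5 to 36.9 ± 13.3 CPM (edgeR adjusted p = 0.00132), and JUN fell by 0.75 on the log2 scale (adjusted p = 0.0118).

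Of 11 tested cytokine, chemokine and co-stimulatory genes 8 were called lower and 9 were lower at the adjusted p alone, and the median was -1.88 on the log2 scale. IFNB1, interferon beta, went from 4.43 ± 0.792 to 0.227 ± 0.130 CPM (log2 fold change -4.28, edgeR adjusted p = 7.2e-05). CCL3, which has near-identical gene copies that can share its reads, went from 3.38 ± 0.600 to 0.236 ± 0.0449 CPM, and the T cell attractant CCL5 went from 112 ± 39.5 to 13.8 ± 2.72 CPM. The log2 fold changes of CXCL11 and IL1A were -2.85 and -1.88. The libraries labelled TFAM-OE averaged under the 0.303 CPM that the filter asks for in IFNB1, CCL3 and CXCL11, so these were tested only because of their control level, and the count and median of the output list are a description. All 5 lay past the threshold (edgeR adjusted p from 4.4e-05 for CCL3 to 0.00386 for IL1A).

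**Figure D5:**
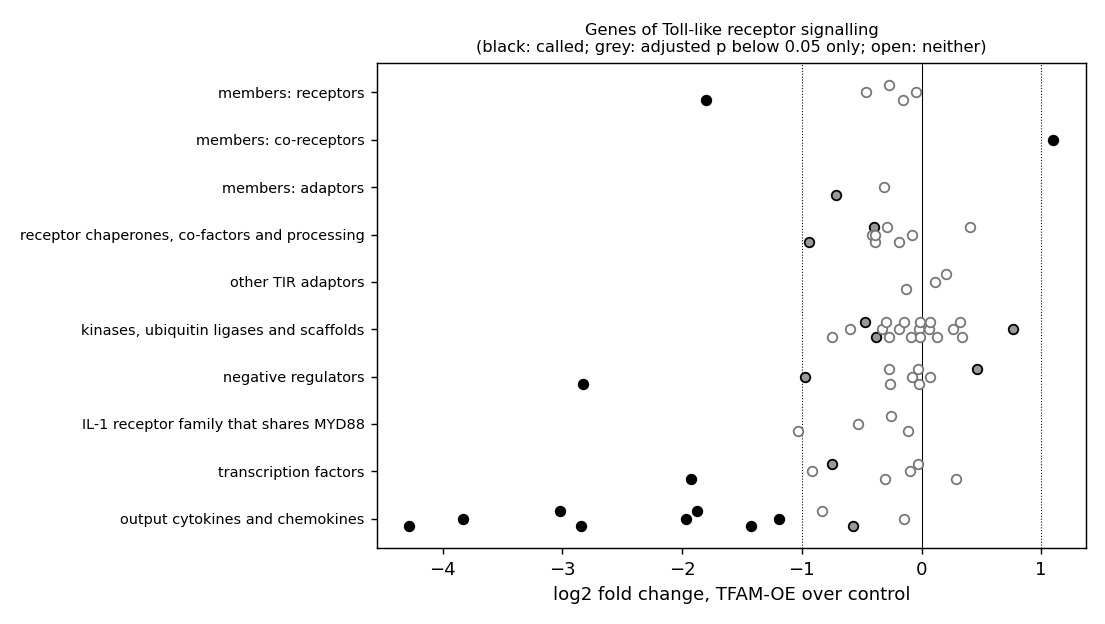
Log2 fold change of each tested gene, labelled TFAM-OE over control, by its place in the pathway, with black points for called genes, grey for an adjusted p below 0.05 alone, open for neither and dotted lines at a 2-fold change. The called points gather in the row of output cytokines and chemokines, where 8 of 11 are called, while the kinases centre near 0.

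For each changed gene, the genes whose log2 CPM followed it most closely over the 6 libraries are named. These are the best of all tested genes over few libraries that fall into 2 groups, and the correlations are given as a description. TLR3 was followed most closely by AC015688.3, CTD-2636A23.2, SAMD9L, DTX3L and HERC5 (Pearson's r from 0.995 to 0.997), of which SAMD9L, DTX3L and HERC5 are known interferon-induced genes, with SAMD9L going from 21.9 to 4.50 CPM and HERC5 from 39.2 to 11.6 CPM. MYD88 was followed by ZFAND1, MTHFSD, IFI35, STAT2 and GTPBP1 (r from 0.995 to 0.998), among them IFI35, an interferon-induced gene, and STAT2, a subunit of the factor that binds the ISRE, which went from 53.4 to 26.3 CPM. CD14 was followed by ULK1, MTHFD1L, RP11-162P23.2, CMB9-22P13.1 and TSPAN1 (r from 0.993 to 0.999), with smaller log2 fold changes than CD14 itself, from 0.27 to 0.81.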

How the data were processed

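For each library of poly(A) RNA the authors deposited raw counts of uniquely mapped reads per gene and FPKM values. Per the labels, bcl2fastq, TopHat2 and edgeR were used with GRCh38. The kit marks strand, but the sources used here name no counting program or annotation and do not say whether strand was used. Value columns left unused numbered 0.

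Counts were tested two-sided in R (4.3.3) with edgeR's quasi-likelihood test (4.0.16) after filterByExpr and TMM scaling, with no covariate and with Benjamini-Hochberg adjustment over 16555 genes, a procedure tested on simulated data, where its share of false calls was above the threshold, and higher still without the filter. CPM are TMM-scaled, and SEs come from the edgeR fit. TLR2 and LY96 take values from a fit of all genes with a read. Read counts without molecular identifiers limit counting error only. The study describes its 3 libraries per group as biological replicates, and replicates of a group differed beyond sampling noise. By chi-squared per degree of freedom, control pairs had 7.48 to 21.5 and pairs across the groups 33.3 to 82.4. Labelled TFAM-OE replicates 1 and 3 had 56.5, so these replicates differed as much as libraries of different groups.

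The 10 genes and all lists were chosen with earlier results of these data known. Of other pathway genes, those past the adjusted threshold are named, at most 5 a list, smallest p first; for TLR3, CD14 and MYD88 the 5 most correlated genes are named. TLR9 and TLR10 are exceptions. Fibroblast markers were also looked up, with summed levels of 0.66 to 0.77 FPKM in the control and 0.41 to 0.67 in the libraries labelled TFAM-OE. The alveolar type II markers summed to 1.26 to 1.85 and 0.24 to 0.28 FPKM in these groups. LAMP3 alone averaged 1.56 FPKM in the control, so the control sum is mostly that gene and does not describe the list. Coordinates and overlaps are from GENCODE 44, which held 97.2% of gene IDs by identifier, and promoters from the RefSeq table. Alternatives were DESeq2 (1.42.0), limma-voom and limma-trend (3.58.1), other scalings and filters, each library left out in turn, and a replicate block.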

Additional observations from a re-analysis of the deposited data

How the results depend on the processing

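TLR3 stayed lower and past the adjusted threshold under all 15 alternatives without a block (adjusted p from 4.8e-15 to 0.00500), as did CD14 in the higher direction (8.0e-06 to 0.0399). For MYD88 the adjusted p ran from 5.9e-07 to 0.0757 and for TICAM1 from 0.0696 to 0.345. The count of these genes called higher was 0 with limma-trend on log2(FPKM + 0.1), and with limma-trend on log2(FPKM + 1) both the count called higher and the count called lower were 0, since a pseudocount shrinks the folds of low genes (TLR3 -0.54, CD14 0.62). Leaving out each library in turn gave 0 to 1 called higher, the 0 without TFAM-OE replicate 3. Signs turned for genes that never passed the test. With each library left out, log2 fold changes ran from -0.14 to 0.036 for TLR1, -0.98 to 0.25 for TLR2, -1.05 to 0.0065 for TLR4, -0.77 to 0.13 for TLR5 and -1.42 to 1.20 for LY96, and limma-voom gave 0.21 for LY96. Same-numbered libraries did not deviate together (correlations -0.22, 0.0077 and -0.27, none highest with its own number). No pairing by number was thus seen, but so few libraries cannot settle whether same-numbered cultures were handled together. With the replicate block 2 of the genes passed the adjusted threshold in place of 3, and MYD88 had -0.71 with an adjusted p of 0.0821. Pathway genes called numbered 7 to 13, and 8 with the block. Depth limits TLR2, TLR4, TLR5 and LY96.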
